A study of Mus musculus with 36 samples.

Results

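The E2F transcription factors E2f1 to E2f8 and their DP dimer partners Tfdp1 and Tfdp2 were followed across an allelic series of Chd8, which encodes the chromatin remodeller CHD8, in the embryonic mouse forebrain. These 10 genes were taken by name from the 46603 genes of the count tables, and all 10 passed the filter on low counts at both stages. Chd8neo/neo embryos (mild hypomorphs) had higher E2f1, E2f4 and E2f5, Chd8neo/- embryos (severe hypomorphs) had higher E2f5, the conditional knockout had higher E2f7 and lower E2f2, and no member passed the test in Chd8+/- embryos. These called changes were small, between 0.841 and 1.20 times the control level. They made up 3, 1 and 2 of the 10 members in turn, where 8.16%, 11.5% and 11.4% of all genes tested were called. Each of these calls was lost in some fits with a single library left out. Those in Chd8neo/neo were also lost when only the 2 groups compared were fitted. E2f7 had log2 fold changes of similar size in Chd8neo/neo (0.30), Chd8neo/- (0.26) and the conditional knockout (0.27). In the hypomorphs DESeq2 called it and the main edgeR fit did not.

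E2F proteins bind a shared DNA element in the promoters of genes needed for DNA replication and mitosis, most of them as heterodimers with a DP protein. E2F1, E2F2 and E2F3 are known as activators that drive entry into S phase when cyclin-dependent kinases release them from the retinoblastoma protein. E2F4 and E2F5 act mainly as repressors with the pocket proteins p107 and p130 (genes Rbl1 and Rbl2), E2F6 recruits a Polycomb-type repressor complex, and E2F7 and E2F8 repress the same promoters without a DP partner or a pocket protein. In the developing cortex the E2F programme is a readout of cycling progenitors, since it is shut down as newborn neurons leave the cell cycle.

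RNA sequencing was carried out on 12 libraries at embryonic day (E) 12.5 and 6 at E10.5, with 3 per group, all from C57BL/6J mice. At E12.5 each library came from the neocortex of a single embryo, which was wild type (Chd8+/+), heterozygous for a null allele (Chd8+/-), homozygous for the neo allele (Chd8neo/neo) or carried the neo and the null allele (Chd8neo/-). In the neo allele a selection cassette between exons 3 and 4 causes aberrant splicing, so full-length Chd8 is reduced in every cell of the embryo. At E10.5 RNA from the telencephalic vesicles of 2 embryos was pooled in each library. Sox1-Cre; Chd8f/f conditional knockouts (cKO) were compared with a control group (Ctrl). Its label gives a combination of Chd8f/f and Chd8f/+ and names no Cre, while the paper gives its control embryos as Chd8f/f. Sox1-Cre acts in early neural progenitors, so mesenchymal, endothelial and blood cells of the dissected tissue kept Chd8, and recombination removes exon 3 alone, so transcripts with the remaining exons are still counted. The stages therefore differ in tissue, allele, pooling and sequencing, and the levels of both stages are set side by side without a test. Only the effects measured within each stage are tested against each other.

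The deposited values were raw read counts per gene, with totals of 38774591 to 61051667 per library at E12.5 and 49632937 to 68488879 at E10.5. Levels are given as CPM, read counts scaled to library size after TMM normalization within a stage. The small number of libraries limits precision, and no member had fewer than 1541 reads in any library. Chd8 itself was at 235 to 239 CPM in Chd8+/+, 165 to 170.2 in Chd8+/-, 203 to 213 in Chd8neo/neo, 142 to 158 in Chd8neo/-, 160.0 to 184 in Ctrl and 116 to 125 in cKO, so every mutant library was below its controls. A gene-level count does not separate full-length Chd8 transcripts from those that splice into the cassette or lack exon 3. Radial glia markers summed to 2671 to 2882 CPM in Chd8+/+ and neuron markers to 3718 to 4458. At E10.5 the neuron sum was 211 to 381 CPM in Ctrl, with Neurod6 at 0 in all 6 libraries. Ventral telencephalon markers summed to 705 to 746 CPM in Chd8+/+ and reached 98.1 CPM for Nkx2-1 and 69.0 for Lhx6. The tissue called neocortex at E12.5 was therefore not free of ventral telencephalon RNA. Xist was high in 1 of 3 Chd8+/+, 1 of 3 Chd8+/-, 2 of 3 Chd8neo/neo and 0 of 3 Chd8neo/- libraries. In the pooled E10.5 libraries it was at 1779, 3.09 and 2141 CPM in Ctrl and 1069, 708 and 772 in cKO. Sex was used as a covariate at E12.5 only. Chd8+/+ replicate 2 had the highest neuron sum of its group and the lowest level of 8 of the 10 members, and Chd8neo/neo replicate 3 had the highest neuron sum, the lowest radial glia sum and the lowest level of all 10 members in its group, so results that rest on these libraries are also given without them. In bulk tissue, fewer cells of a type and less RNA per cell cannot be told apart.

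On GRCm38, E2f1 lies at chr2:154559407-154569892, minus strand, E2f2 at chr4:136172394-136196057, plus strand and E2f3 at chr13:29906575-29985668, minus strand. The pocket-dependent repressors lie at chr8:105297663-105305369, plus strand (E2f4) and chr3:14578641-14606309, plus strand (E2f5). E2f6 is found at chr12:16810965-16826743, plus strand, E2f7 at chr10:110745439-110787384, plus strand and E2f8 at chr7:48866429-48881596, minus strand. The DP genes lie at chr8:13339674-13377702, plus strand (Tfdp1) and chr9:96196275-96323646, plus strand (Tfdp2). Exons of E2f8 share a short stretch with Gm2788, those of E2f7 share 86 bases with 1700020G17Rik and those of E2f5 share 26 bases with 1810022K09Rik. Reads were counted without regard to strand, so reads of these shared bases cannot be assigned to either gene.

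Several E2F genes are known to be E2F targets themselves, so the 250 bases before the RefSeq start sites of the members were searched for the 7-letter E2F core (TTCCCGC, and with CG, GC or GG in the middle TTCGCGC as well as TTGCCGC plus TTGGCGC, on both strands) in the promoter windows of GRCm38.p6. Windows were held for 8 of the 10 members, 12 windows in all, and for neither E2f4 nor E2f5. The core occurred in 7.89% of the 32851 windows of 250 bases before a start site, and a longer form with a further T before it in 1.86%. E2f7 held 3 cores, at 223, 198 and 92 bases before its start. E2f8, E2f3 and Tfdp1 held 1 core each, at 111, 11 and 43 bases before the start, and E2f1, E2f2, E2f6 and Tfdp2 held none in these windows. The second window of E2f3 held none, and the Tfdp1 core also lay in its second window, 96 bases before that start. The windows of E2f1 and Tfdp2 and the second windows of E2f2 and E2f3 lie inside the gene spans given above, so their lack of a core does not describe sequence upstream of those genes. The 4 members with a core are shown because they include E2f7, the only member called higher in the cKO, and E2f8, its closest relative. Their upstream bases are printed as unbroken sequence that ends at the base before the start site, with the cores in capitals. The printed stretches, the whole searched window for E2f7 and the 150 bases nearest the start for the others, lie at chr10:110745189-110745438, plus strand (E2f7), chr7:48881597-48881746, minus strand (E2f8), chr13:29986064-29986213, minus strand (E2f3) and chr8:13338601-13338750, plus strand (Tfdp1), and each is written 5′ to 3′ on the strand of its gene.
E2f7: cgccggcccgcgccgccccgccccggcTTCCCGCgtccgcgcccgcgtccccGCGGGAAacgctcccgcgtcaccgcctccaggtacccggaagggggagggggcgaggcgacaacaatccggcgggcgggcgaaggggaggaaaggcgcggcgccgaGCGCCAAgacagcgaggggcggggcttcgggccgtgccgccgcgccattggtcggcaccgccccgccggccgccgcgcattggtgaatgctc
E2f8: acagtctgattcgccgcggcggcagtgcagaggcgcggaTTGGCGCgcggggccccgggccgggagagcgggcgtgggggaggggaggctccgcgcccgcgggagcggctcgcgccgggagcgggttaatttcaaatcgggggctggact
E2f3: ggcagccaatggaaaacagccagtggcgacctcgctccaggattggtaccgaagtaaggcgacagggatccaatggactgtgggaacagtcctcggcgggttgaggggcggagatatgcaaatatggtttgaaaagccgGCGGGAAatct
Tfdp1: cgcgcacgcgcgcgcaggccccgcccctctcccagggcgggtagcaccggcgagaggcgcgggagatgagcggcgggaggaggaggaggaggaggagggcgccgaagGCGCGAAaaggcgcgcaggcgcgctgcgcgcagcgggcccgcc
The core of E2f8 overlaps a CCAAT box on the opposite strand (CCAAT, found on either strand in 33.8% of windows). The E2f3 window also holds a TTTGAA element 23 bases before the start and that of E2f8 a TTTGAA on the opposite strand 20 bases before it, the cell cycle homology region (TTTGAA or TTCGAA, in 17.1% of windows). A match describes these letters and shows no binding.

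To place the members on one scale, CPM was divided by exon length in kilobases. In Chd8+/+ neocortex Tfdp1 was the highest at 114 CPM per kb (range 113 to 114, n = 3), and the main repressor E2f4 was the highest E2F at 42.3 CPM per kb. E2f6 followed at 34.9, E2f5 at 27.2, E2f3 at 18.7 and E2f1 at 15.9 CPM per kb, and the ranges of these 6 genes did not overlap. E2f8, E2f2 and Tfdp2 were close together at 9.0, 8.82 and 8.73 CPM per kb, and the libraries of neighbours in this order overlapped. E2f7 was the lowest at 6.93 CPM per kb, below every library of Tfdp2. This order rests on the division by length. In mean CPM, E2f3 was at 89.5, E2f6 at 84.6 and E2f4 at 84.3, and E2f2 was the lowest member at 43.1.

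In Ctrl telencephalon at E10.5 the order was the same at the top and differed in 2 places. Tfdp1 stood at 175 and E2f4 at 66.7 CPM per kb, and E2f5 (52.9) lay above E2f6 (43.9) with no overlap of their libraries. E2f3, E2f1, E2f8 and E2f2 followed at 25.7, 18.4, 10.5 and 9.38 CPM per kb, and the libraries of E2f8 and E2f2 overlapped. E2f7 at 8.11 and Tfdp2 at 7.68 CPM per kb were the lowest and overlapped each other. The level of Tfdp2 is the one most lowered by the division, by its 14029 exon bases, which are counted over the whole gene.

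**Figure D1:**
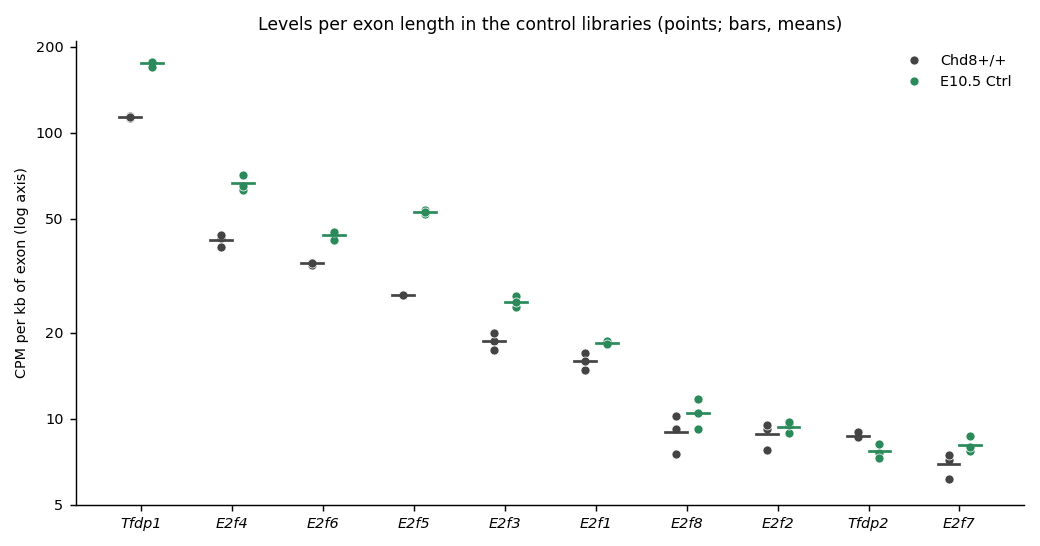
Level of each E2F and DP gene in CPM per kilobase of exon (log axis) in the 3 Chd8+/+ libraries at E12.5 and the 3 Ctrl libraries at E10.5, with points for libraries and a bar at the mean. Tfdp1 is the highest in both groups (114 and 175 CPM per kb) and E2f4 the highest E2F, while E2f7 and Tfdp2 are at the bottom.

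Loss of 1 Chd8 allele was examined first. None of the 10 members passed the test between Chd8+/- and Chd8+/+ neocortex (0 at edgeR adjusted p under 0.05 and 0 at an unadjusted p under 0.05), and over all 18810 genes tested 0.0213% were called by edgeR and 1190 had an unadjusted p under 0.05. The log2 fold changes ran from -0.034 (E2f6) to 0.090 (E2f7). The pocket-dependent repressor E2f5 was at 48.3, 48.4 and 48.4 CPM in Chd8+/+ and at 48.7, 52.4 and 49.8 in Chd8+/-, the only member whose libraries did not overlap, against 11.4% of all genes without overlap, and its log2 fold change of 0.056 (95% interval -0.060 to 0.17) did not pass the test (edgeR adjusted p = 0.927). For the activator E2f1 the interval was -0.15 to 0.11, so a change of the size seen in Chd8neo/neo (0.25) lay outside it. The interval for E2f7 was wider, at -0.12 to 0.30.

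The comparison of Chd8neo/neo with Chd8+/+ neocortex asked what a further reduction of CHD8 does. In these embryos 3 of the 10 members rose, 1 activator and both pocket-dependent repressors, and none fell, where 8.16% of all genes tested were called (3.71% higher and 4.45% lower). All 10 log2 fold changes were above 0, with a median of 0.16 against 0.0053 over all genes tested. Libraries did not overlap between the groups for 4 members, against 26% of all genes.

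E2f1, an activator that also drives cell death genes, was at 53.6, 46.6 and 50.3 CPM in the 3 Chd8+/+ libraries and at 62.2, 58.6 and 57.9 in the 3 Chd8neo/neo libraries. All 3 mutant libraries lay above all 3 controls, with a mean of 59.6 ± 2.32 against 50.1 ± 3.51 CPM (SD, n = 3) and a log2 fold change of 0.25 with a standard error (SE) of 0.061 (edgeR adjusted p = 0.0253). The other activators were less clear. E2f2 was at 44.9, 37.9 and 46.5 CPM in Chd8+/+ and 47.9, 48.1 and 42.2 in Chd8neo/neo, with overlapping libraries and a log2 fold change of 0.096 (edgeR adjusted p = 0.470). For E2f3, the activator with the highest level, the values were 89.3, 83.6 and 95.6 CPM in Chd8+/+ and 99.9, 102 and 88.2 in Chd8neo/neo, and the groups overlapped through Chd8neo/neo replicate 3 (log2 fold change 0.11, edgeR adjusted p = 0.261).

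E2f4, the main repressor E2F of resting cells, was at 85.5, 79.7 and 87.7 CPM in Chd8+/+ and 103, 101 and 91.8 in Chd8neo/neo. Each mutant library exceeded each control, with a log2 fold change of 0.22 with an SE of 0.053 (edgeR adjusted p = 0.0216). E2f5, its closest relative, was at 48.3, 48.4 and 48.4 CPM in Chd8+/+, which was nearly level, and at 58.5, 58.4 and 51.1 in Chd8neo/neo. These libraries did not overlap either, although replicate 3 of Chd8neo/neo sat well below the other two (log2 fold change 0.21, SE 0.054, edgeR adjusted p = 0.0303).

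Among the pocket-independent repressors, E2f6, the Polycomb-linked member, was at 85.1, 83.7 and 84.9 CPM in Chd8+/+ and 88.2, 91.7 and 83.5 in Chd8neo/neo, with overlapping libraries (log2 fold change 0.054, edgeR adjusted p = 0.472). E2f7 showed the largest fitted difference of the 10 but also a wide spread. It was at 64.6, 55.2 and 67.4 CPM in Chd8+/+ and 84.5, 79.8 and 66.3 in Chd8neo/neo, where replicate 3 fell inside the control range, and the log2 fold change of 0.30 (SE 0.097) did not pass (edgeR adjusted p = 0.0775), while DESeq2 called it (adjusted p = 0.0193). E2f8 was at 50.2, 41.1 and 55.7 CPM in Chd8+/+ and 63.0, 60.8 and 52.1 in Chd8neo/neo, again with replicate 3 inside the control range (log2 fold change 0.26, edgeR adjusted p = 0.149).

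Of the DP partners, Tfdp1, which encodes the DP1 subunit shared by most E2F dimers, was at 194, 192 and 194 CPM in Chd8+/+ and 211, 205 and 201 in Chd8neo/neo. Its libraries did not overlap, yet the log2 fold change of 0.087 (SE 0.045) did not pass the test (edgeR adjusted p = 0.253). Tfdp2, which encodes the related DP2 subunit, was at 121, 121 and 126 CPM in Chd8+/+ and 122, 142 and 121 in Chd8neo/neo, where only replicate 2 of Chd8neo/neo lay above all controls (log2 fold change 0.068, edgeR adjusted p = 0.512).

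The 3 calls in Chd8neo/neo depended on single libraries: none of the 10 members was called without Chd8+/+ replicate 2, Chd8neo/neo replicate 1 or Chd8neo/neo replicate 2, E2f4 alone was called without Chd8+/+ replicate 3, E2f5 was also lost without Chd8+/+ replicate 1, and 4 members were called without Chd8neo/neo replicate 3. The calls ended when only the 2 groups were fitted (edgeR adjusted p = 0.0635 for E2f1, 0.0692 for E2f4 and 0.0993 for E2f5), and E2f5 did not pass with sex as a covariate (edgeR adjusted p = 0.0582). The neuron markers also differed between these groups. Their sum was 2989 to 3556 CPM in Chd8neo/neo against 3718 to 4458 in Chd8+/+, with no overlap, all 10 neuron markers had negative log2 fold changes and Map2 and Dcx passed the test. Radial glia markers summed to 2674 to 3075 against 2671 to 2882 CPM, with Pax6 and Sox2 called higher of 8. Microglia markers summed to 18.3 to 24 against 24.8 to 26.2 CPM, with no overlap and none of 4 called, and all 7 ventral telencephalon markers were negative with Gad1 called lower. Mesenchyme and endothelium markers summed to 540.0 to 678 against 672 to 817 CPM, with 5 of 6 negative and Kdr called lower (-0.17, edgeR adjusted p = 0.0236). The part of these shifts in the E2F values was not tested.

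**Figure D2:**
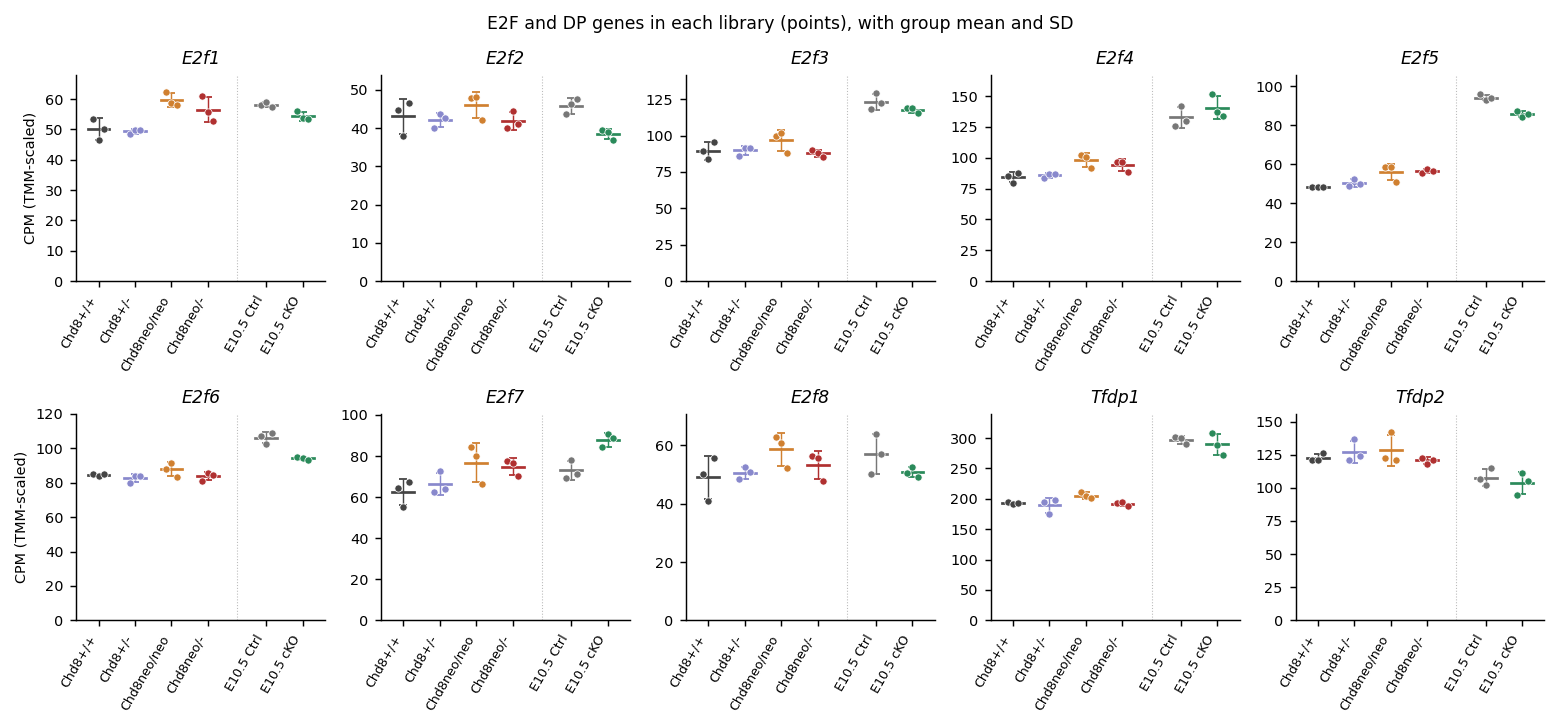
TMM-scaled level in CPM (y axes, each starting at 0) of the 10 members in every library, by group (x axes; 3 libraries a group), with bars for the mean and SD and each stage scaled on its own. E2f1 is at 57.9 to 62.2 CPM in Chd8neo/neo and 46.6 to 53.6 in Chd8+/+, E2f7 is at 84.2 to 90.9 in cKO and 69.4 to 78.2 in Ctrl, and E2f5 is at 48.3 to 48.4 in Chd8+/+, 51.1 to 58.5 in Chd8neo/neo and 55.4 to 57.5 in Chd8neo/-.

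Chd8neo/- embryos, in which a null allele replaces 1 of the neo alleles, were compared with the same 3 Chd8+/+ libraries. Only E2f5 rose in this genotype, 1 of 10 members where 11.5% of all genes tested were called (5.48% higher and 5.99% lower). It was at 55.4, 57.5 and 56.6 CPM against 48.3, 48.4 and 48.4 in Chd8+/+, so that every Chd8neo/- library lay above every control, with a log2 fold change of 0.22 with an SE of 0.054 (edgeR adjusted p = 0.0165). Of the 10 log2 fold changes 5 were above 0, with a median of 0.054 against 0.0011 over all genes. Libraries did not overlap for E2f4, E2f5 and E2f7, against 33.3% of all genes.

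The other pocket-dependent repressor, E2f4, was at 96.8, 97.0 and 88.6 CPM in Chd8neo/- and its log2 fold change of 0.16 missed the threshold (edgeR adjusted p = 0.0671). The activator E2f1 was at 61.0, 55.8 and 52.7 CPM, with replicate 3 inside the Chd8+/+ range (log2 fold change 0.17, edgeR adjusted p = 0.0847). E2f2 was at 40.0, 44.5 and 41.0 and E2f3 at 90.1, 87.7 and 85.3 CPM, each library within the Chd8+/+ range, and their log2 fold changes were -0.043 and -0.030. E2f7, at 77.8, 76.5 and 70.1 CPM, lay above every control (log2 fold change 0.26, SE 0.097, edgeR adjusted p = 0.107), and DESeq2 called it (adjusted p = 0.0433). E2f6 was at 81.2, 85.7 and 84.3 CPM and E2f8 at 56.2, 55.6 and 47.9 CPM, each overlapping the controls, with log2 fold changes of -0.015 and 0.12.

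Neither DP gene passed the test here, with Tfdp1 at 193, 195 and 188 CPM (95% interval of the log2 fold change -0.11 to 0.086) and Tfdp2 at 123, 118 and 121 (95% interval -0.15 to 0.10). The E2f5 call ended without Chd8neo/- replicate 2 (edgeR adjusted p = 0.0662), without Chd8neo/- replicate 3 (0.0512) and with the first sequencing run alone (0.0611), and 3 members were called without Chd8neo/neo replicate 3, which belongs to neither group. Neuron markers summed to 3347 to 3787 CPM here, against 3718 to 4458 in Chd8+/+, with Dcx and Map2 called lower, and erythroid markers to 4294 to 6846 against 2979 to 3662 CPM in Chd8+/+, with Hbb-bh1 and Hba-x called higher of 5. Ventral telencephalon markers summed to 547 to 679.8 against 705 to 746 CPM, with no overlap, all 7 negative and Gad1 called lower (-0.34, edgeR adjusted p = 0.0485). The part of these markers in the E2f5 difference was not tested.

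Next, the mutants were compared with each other. Against Chd8+/- libraries, Chd8neo/neo libraries were higher in E2f1 and E2f4, 2 of 10 members where 5.28% of all genes were called. E2f1 was at 48.3, 49.7 and 49.9 CPM in Chd8+/-, below every Chd8neo/neo library (log2 fold change 0.27, SE 0.061, edgeR adjusted p = 0.0267). E2f4 was at 83.5, 86.5 and 87.1 CPM in Chd8+/-, again below every Chd8neo/neo library (log2 fold change 0.20, SE 0.053, edgeR adjusted p = 0.0441). Libraries of these genotypes with the same replicate number correlated weakly (r = 0.108, 0.195 and 0.199), so a fit blocked on that number was also made. In it E2f1 kept its call (edgeR adjusted p = 0.0345) and E2f4 lost it (edgeR adjusted p = 0.0681), with 572 in place of 994 genes called in all. E2f4 also lost its call with RLE scaling (edgeR adjusted p = 0.0505) and both genes lost it with sex as a covariate or with only the 2 groups fitted. The E2f1 call also ended without Chd8+/- replicate 1 or 3 or Chd8neo/neo replicate 1 or 2, and that of E2f4 without any library other than Chd8+/+ replicate 2, Chd8neo/neo replicate 3 and Chd8neo/- replicate 3. Neuron markers summed to 2989 to 3556 CPM in Chd8neo/neo against 3845 to 4497 in Chd8+/-, with no overlap, and all 10 were negative (median log2 fold change -0.42), with Map2 and Dcx called lower, while Sox2 of the 8 radial glia markers was called higher. Their part in the E2f1 and E2f4 differences was not tested.

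Between the hypomorphs no member differed at an adjusted p under 0.05 by edgeR, where 0.0159% of all genes were called, and 2 members (E2f3 and Tfdp1) and 1585 genes had an unadjusted p under 0.05. E2f3 was at 99.9, 102 and 88.2 CPM in Chd8neo/neo and 90.1, 87.7 and 85.3 in Chd8neo/-, with 1 Chd8neo/- library above the lowest Chd8neo/neo library (log2 fold change -0.14, 95% interval -0.27 to -0.015). Tfdp1 was lower in every Chd8neo/- library (193, 195 and 188 CPM) than in every Chd8neo/neo library (211, 205 and 201 CPM), with an interval of -0.20 to -0.0013. For E2f5, higher in both hypomorphs than in Chd8+/+, the interval of the difference between them was -0.10 to 0.13, and for E2f1 it was -0.21 to 0.053.

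Conditional deletion of Chd8 in neural progenitors was examined at E10.5. In the cKO E2f7 rose and E2f2 fell, 2 of 10 members, where 11.4% of all genes tested were called (5.75% higher and 5.70% lower). Of the 10 log2 fold changes 8 were below 0, with a median of -0.083 against -0.0019 over all genes. Libraries did not overlap for E2f1, E2f2, E2f5, E2f6 and E2f7, against 32.2% of all genes.

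All 3 activators had negative log2 fold changes. E2f2, the activator with the lowest level, was at 43.6, 46.2 and 47.5 CPM in Ctrl and 39.5, 39.1 and 37.0 in cKO, so that every cKO library lay below every Ctrl library (log2 fold change -0.25, SE 0.064, edgeR adjusted p = 0.0312). E2f1 was also lower in each cKO library, at 55.9, 53.7 and 53.3 against 58.0, 59.1 and 57.3 CPM, but by little (log2 fold change -0.099, edgeR adjusted p = 0.281). E2f3 was at 118, 129 and 123 CPM in Ctrl and 119, 119 and 115 in cKO, with overlapping libraries (log2 fold change -0.067, edgeR adjusted p = 0.489).

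Among the repressors, E2f7, which shuts off E2F targets late in S phase, was at 69.4, 78.2 and 71.5 CPM in Ctrl and 84.2, 90.9 and 88.6 in cKO. The lowest cKO library exceeded the highest Ctrl library, with a mean of 87.9 ± 3.41 against 73.0 ± 4.597 CPM (SD, n = 3) and a log2 fold change of 0.27 with an SE of 0.064 (edgeR adjusted p = 0.0227). Its partner E2f8, which can form dimers with it, was at 50.2, 64.0 and 56.9 CPM in Ctrl and 50.7, 52.7 and 49.3 in cKO, with only cKO replicate 3 below the Ctrl range (log2 fold change -0.16, 95% interval -0.34 to 0.016). E2f6 was lower in every cKO library (107, 102 and 109 against 95.04, 94.2 and 93.3 CPM), but its log2 fold change of -0.17 missed the threshold in edgeR (adjusted p = 0.0611) and passed it in DESeq2 (adjusted p = 0.0471).

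The pocket-dependent repressors differed in sign. E2f5 was at 95.9, 92.9 and 94.0 CPM in Ctrl and 87.4, 84.1 and 85.8 in cKO, without overlap (log2 fold change -0.14, edgeR adjusted p = 0.125), and E2f4 was at 126, 142 and 130.2 CPM in Ctrl and 152, 137 and 134 in cKO, with overlap (log2 fold change 0.084, edgeR adjusted p = 0.470). Neither passed the test. Tfdp1 was at 301.7, 300.3 and 289.8 CPM in Ctrl and 308, 288 and 272.6 in cKO, with overlap (log2 fold change -0.037). Tfdp2 was at 107, 102 and 115 CPM in Ctrl and 94.6, 111 and 105 in cKO, also with overlap (log2 fold change -0.056).

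The E2f2 and E2f7 calls both ended without Ctrl replicate 3 (edgeR adjusted p = 0.124 and 0.0883), cKO replicate 2 (0.114 and 0.122) or cKO replicate 3 (0.130 and 0.0786), and held in the 7 alternatives that kept all libraries. Mesenchyme and endothelium markers, from cells that Sox1-Cre does not recombine, summed to 781 to 980.3 CPM in cKO against 642 to 726 in Ctrl, with all 6 log2 fold changes above 0 and Col1a2 and Col3a1 called. Microglia markers summed to 18.2 to 20.4 against 13.8 to 16.6 CPM, with Cx3cr1 called higher, and the neuron and radial glia sums overlapped between the groups. The part of these cells in the E2F values was not tested.

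**Figure D3:**
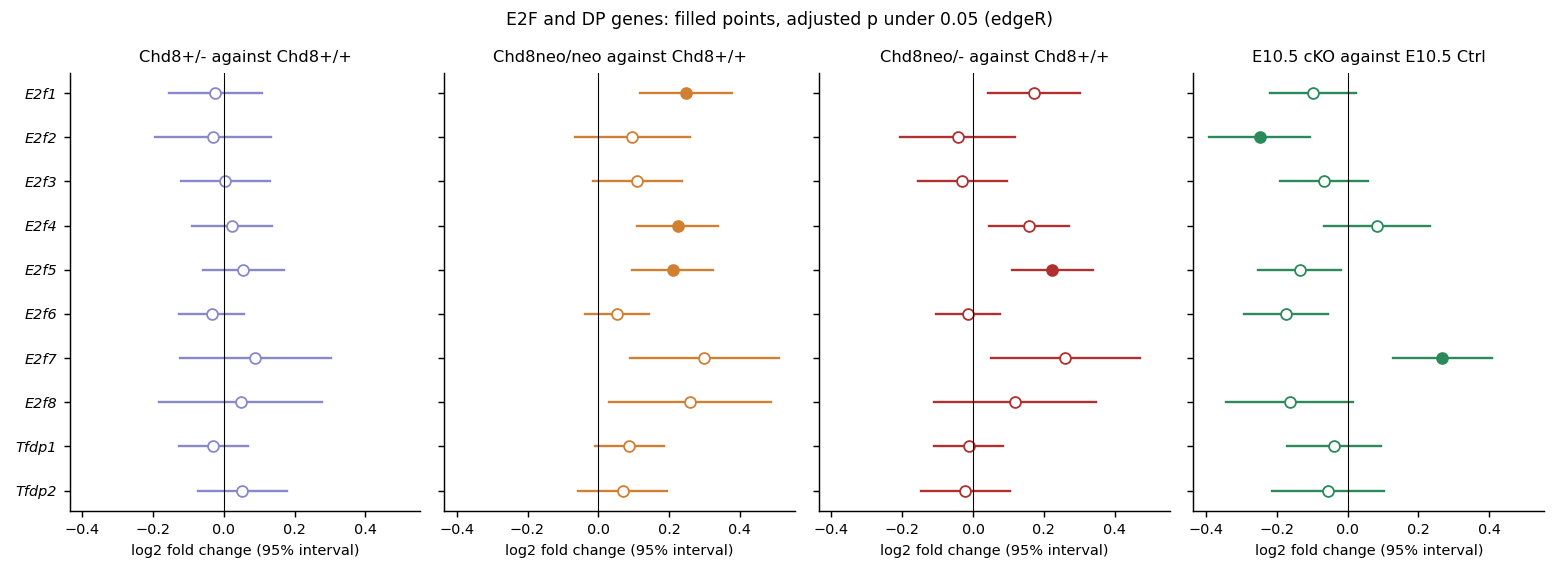
Fitted log2 fold change of each member (points) with its 95% interval (lines) in the comparisons with Chd8+/+ at E12.5 and with Ctrl at E10.5, with filled points for edgeR adjusted p under 0.05. All members lie above 0 in Chd8neo/neo (median 0.16), E2f5 is called in both hypomorphs, and E2f7 (0.27) and E2f2 (-0.25) point in opposite directions in cKO.

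To ask whether the responses differed, the difference between the effects was tested in a joint fit of all 18 libraries, each effect within its own stage. The effect in cKO was lower than that in Chd8neo/neo for 4 of 10 members, where 6.80% of 19565 genes were called, and lower than that in Chd8neo/- for 2, where 6.79% were called. E2f5 had the smallest adjusted p of the members, with -0.35 (SE 0.071, edgeR adjusted p = 0.00689) on the log2 scale against Chd8neo/neo and -0.36 (SE 0.071, edgeR adjusted p = 0.00602) against Chd8neo/-. Both E2f5 differences were called in all 22 alternatives, namely 4 other fits and each of the 18 libraries left out. The 4 fits were DESeq2, RLE scaling, no filter on low counts and the replicate block. Single sequencing runs and sex as a covariate were not tried for the differences. E2f5 had risen in both hypomorphs, and its cKO libraries were all below Ctrl.

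For the activators, E2f1 differed by -0.35 (SE 0.081, edgeR adjusted p = 0.0143) between cKO and Chd8neo/neo, which held in all 22 alternatives, and by -0.27 (edgeR adjusted p = 0.0498) between cKO and Chd8neo/-, which held in 5 of 22 (DESeq2, the replicate block, and without Chd8+/+ replicate 1, Chd8neo/- replicate 3 or cKO replicate 1). E2f2 differed by -0.35 (edgeR adjusted p = 0.0456) from Chd8neo/neo, a call kept in 6 of 22 alternatives (DESeq2, and without Chd8+/+ replicate 1 or 3, Chd8neo/neo replicate 3, Chd8neo/- replicate 2 or cKO replicate 1) and lost with the replicate block (edgeR adjusted p = 0.0774). E2f6, the remaining called member, differed by -0.23 (edgeR adjusted p = 0.0283), kept in 13 of 22 and lost without Chd8+/+ replicate 2 or 3, Chd8neo/neo replicate 1 or 2, Ctrl replicate 1 or 3 or cKO replicate 2 or 3, and with no filter on low counts. E2f7, with log2 fold changes of 0.30 in Chd8neo/neo and 0.27 in cKO, gave a difference of -0.034 (95% interval -0.29 to 0.22). The comparisons with both hypomorphs share the Chd8+/+ and the E10.5 libraries, and stage, tissue, allele and pooling cannot be told apart in them.

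Activators were then set against repressors by summing CPM per kb over E2f1 to E2f3, over E2f4 and E2f5, and over E2f6 to E2f8. This is a description with no test, and the sums and ratios depend on the division by exon length. The activators summed to 43.4 ± 2.99 CPM per kb (SD, n = 3) in Chd8+/+, the pocket-dependent repressors to 69.5 ± 2.08 and the pocket-independent repressors to 50.9 ± 2.34. In Chd8neo/neo the 3 mean sums were higher, at 48.5 ± 2.69, 80.8 ± 5.30 and 55.6 ± 3.60 CPM per kb, and the ratio of activators to all repressors was 0.356 ± 0.00430 against 0.360 ± 0.0124 in Chd8+/+, with overlapping libraries. In Chd8neo/- the pocket-dependent sum was 79.0 ± 2.44 CPM per kb with activators at 44.8 ± 1.74, and the ratio was 0.340 ± 0.00897 (range 0.334 to 0.350, against 0.346 to 0.369 in Chd8+/+). Chd8+/- stood at 0.352 ± 0.00346.

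At E10.5 the ratio was lower in both groups than in any E12.5 group, at 0.294 ± 0.00255 in Ctrl (range 0.291 to 0.296) and 0.281 ± 0.00425 in cKO (range 0.277 to 0.285), and the cKO libraries lay below the Ctrl libraries. Activators summed to 53.5 ± 1.62 CPM per kb in Ctrl and 49.6 ± 1.05 in cKO, with no overlap, and pocket-independent repressors to 62.5 ± 1.06 and 58.0 ± 0.630, also with no overlap. The pocket-dependent sums, 119.6 ± 3.52 and 119 ± 5.50 CPM per kb, overlapped. The low ratio at E10.5 went with E2f4 and E2f5, whose levels per length in Ctrl were 66.7 and 52.9 CPM per kb against 42.3 and 27.2 in Chd8+/+, each stage scaled on its own.

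Genes that work with the E2F proteins were taken from lists compiled with earlier results of these data known. Over all genes tested, edgeR called 8.16% in Chd8neo/neo, 11.5% in Chd8neo/- and 11.4% in cKO. A few calls in lists this short therefore say little about a list. Of the 3 pocket proteins, Rbl1 (p107) rose in Chd8neo/neo (log2 fold change 0.22, edgeR adjusted p = 0.0222) and in Chd8neo/- (0.20, edgeR adjusted p = 0.0263), Rbl2 (p130) fell in Chd8neo/- (-0.22, edgeR adjusted p = 0.0235), and none passed in cKO. Of 7 genes of the MuvB complex and its activators, only Mybl2, which encodes B-Myb and is itself an E2F target, was called, and it rose in Chd8neo/neo (0.37), Chd8neo/- (0.29) and cKO (0.24, edgeR adjusted p = 0.0142, 0.0286 and 0.0271 in turn). Of 10 partners of the E2F6 complex, the MAX dimer partner Mga fell in Chd8neo/neo (-0.19) and Chd8neo/- (-0.26), Wdr5 rose in Chd8neo/neo (0.14), and the Polycomb genes Ring1 (-0.30) and Pcgf6 (-0.25) fell in cKO. Of 7 germline genes known to be silenced by E2F6, 3 were tested at E12.5 and Smc1b alone was called, higher in Chd8neo/- by 0.82 on the log2 scale (edgeR adjusted p = 0.0302).

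Upstream of the pocket proteins, the CDK inhibitor Cdkn1b (p27) fell in Chd8neo/neo (-0.30 on the log2 scale), Chd8neo/- (-0.39) and cKO (-0.61, edgeR adjusted p = 0.00191, 9.23e-05 and 0.000392 in turn), while Cdkn1a (p21), a p53 target, passed in no E12.5 comparison and rose in cKO (3.90, SE 0.33, edgeR adjusted p = 0.00511), where the effect differed by 4.08 from that in Chd8neo/neo and by 3.92 from that in Chd8neo/- (edgeR adjusted p = 1.48e-06 and 2.58e-06). The other CDK inhibitors tested, of 7 listed and 5 tested, did not pass. Of 8 G1 cyclins and kinases, Ccne1 (cyclin E1) rose in Chd8neo/neo (0.28) and Ccnd3 (cyclin D3) rose in Chd8neo/- (0.33) and cKO (0.33). Cdk2 fell in cKO (-0.23). The shares called over all genes were again 8.16% in Chd8neo/neo, 11.5% in Chd8neo/- and 11.4% in cKO.

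Among the known targets of E2F proteins in S phase, nearly all calls in the hypomorphs were higher and all calls in the cKO were lower. Of 46 replication and repair genes, 13 rose and 0 fell in Chd8neo/neo, with a median log2 fold change of 0.14 (all genes 0.0053), and 8 rose and 1 fell in Chd8neo/- (median 0.12). In cKO 0 rose and 9 fell (median -0.020). Over all genes tested 3.71% were called higher in Chd8neo/neo, 5.48% higher in Chd8neo/- and 5.70% lower in cKO. The loading factor Cdt1 (0.44, edgeR adjusted p = 0.00996) and the dUTPase gene Dut (0.32, edgeR adjusted p = 0.00530) rose in Chd8neo/neo. In Chd8neo/- the replication genes Gins4 (0.34), Gins2 (0.29) and Rfc4 (0.29) rose and the thymidine kinase gene Tk1 fell (-0.27). In cKO the licensing inhibitor Gmnn (-0.55, edgeR adjusted p = 0.000623), Gins1 (-0.40) and Tk1 (-0.37) fell. The difference between the effects in cKO and Chd8neo/neo was called for 12 of the 46, each lower in cKO, and that between cKO and Chd8neo/- for 10, where 6.80% and 6.79% of all genes were called.

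Calls among mitotic targets pointed the same way and were fewer. Of 20, 4 rose in Chd8neo/neo, where 3.71% of all genes were called higher, among them Cdc20 (0.26), Cdca8 (0.27) and Cenpa (0.28). Only these 3 of 20 rose in Chd8neo/- (0.24, 0.26 and 0.23), where 5.48% of all genes were called higher. In cKO Mad2l1 (-0.23) and Kif11 (-0.21) fell, 2 of 20 where 5.70% of all genes were called lower. Of 7 cell death genes known as E2F1 targets, none passed in either hypomorph and 3 rose in cKO, namely Pmaip1 (1.40, edgeR adjusted p = 0.000231), Bbc3 (0.93, edgeR adjusted p = 0.000199) and Apaf1 (0.44, edgeR adjusted p = 0.00247), all of which are p53 targets as well, where 5.75% of all genes were called higher. The difference between the effects in cKO and Chd8neo/neo was called for 9 of 20 mitotic genes, each lower in cKO, and for 3 of 7 death genes, each higher, and the counts against Chd8neo/- were also 9 and 3 (over all genes 6.80% and 6.79%). In Chd8+/- no gene of any target list was called.

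The counts over the lists leaned on single libraries. In Chd8neo/neo the S-phase count ran from 3 higher without Chd8neo/neo replicate 2 to 25 without Chd8neo/neo replicate 3, and in Chd8neo/- from 3 without Chd8neo/- replicate 2 to 12 without Chd8neo/neo replicate 3. In cKO it ran from 2 lower without cKO replicate 2 to 9, the mitotic count from 0 without Ctrl replicate 3 to 4 without Ctrl replicate 2, and the count of death genes stayed at 3. The mitotic count was 2 without Chd8neo/neo replicate 1 and 6 without Chd8neo/neo replicate 3 in Chd8neo/neo, and 2 without Chd8neo/- replicate 1 and 4 without Chd8+/- replicate 2 in Chd8neo/-. Without Chd8neo/neo replicate 3, 1 death gene passed in Chd8neo/neo.

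**Figure D4:**
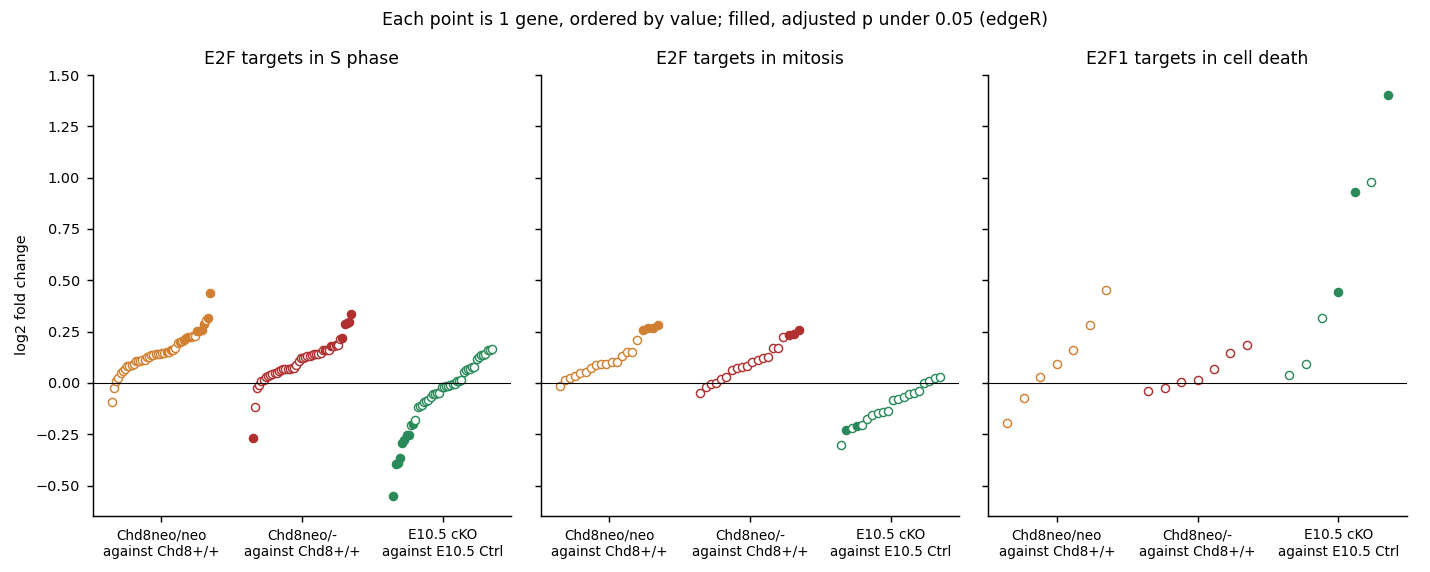
Log2 fold change of every tested gene of the S-phase, mitosis and cell death target lists in Chd8neo/neo, Chd8neo/- (against Chd8+/+) and cKO (against Ctrl), with points ordered by value and filled for edgeR adjusted p under 0.05. The S-phase medians are 0.14, 0.12 and -0.020, and the 3 called death genes are above 0 in cKO.

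Across the 12 E12.5 libraries, which share their groups and cell makeup, members were compared with each other and with 18153 genes by Pearson's r of log2 CPM, as a description. E2f4 followed E2f7 (r = 0.93) and E2f1 (r = 0.92), E2f7 followed E2f8 (r = 0.90), and the DP genes did not follow each other (r = -0.15). The genes most like E2f1 were Pkmyt1 (r = 0.97), Gpaa1 (0.96) and Kif23 (0.96), and those most like E2f4 were Dhx16 (r = 0.98), Chaf1a (0.98) and Mybl2 (0.97). E2f5 was most like Cyp20a1, Haus1 and Dnajc2 (r = 0.96 to 0.97), E2f7 most like Fads1, Cln6 and Dnajb12 (0.97 each), and E2f8 most like Khsrp, Raver1 and Spata13 (0.98 each). For E2f2 the leading genes were Tjp1, Eml1 and Pelp1, for E2f3 Alkbh5, Kpnb1 and Ppp1r15b, and for E2f6 Aph1a, Slc16a3 and Lta4h. Tfdp1 was most like Fzd8 (r = 0.92), Mpped1 and Ccdc7b, and Tfdp2 most like Ntn1 (r = 0.94), Ptch1 and Wdr6.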

How the data were processed

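The deposited values were raw read counts per gene. Per the labels and the study's methods, the authors trimmed reads with Trim Galore 0.4.1, aligned them with TopHat2 2.1.0 to GRCm38.p4 and counted fragments with featureCounts 1.5.0-p1 (file header) without strand, although the libraries were stranded. Such counts depend on annotation and cannot split overlapping genes. The 2 sequencing runs of each library were summed. Genes were filtered with filterByExpr and tested with edgeR 4.0.16 in R 4.3.3 (TMM, robust quasi-likelihood F test, Benjamini-Hochberg over all genes tested, threshold 0.05), with all 12 E12.5 libraries in 1 fit, the 6 E10.5 libraries in another and all 18 in a joint fit for differences of effects. SE is the size of the log2 fold change divided by the square root of F. Alternatives used DESeq2 1.42.0, other scalings, runs, covariates, a replicate block and each library left out. For the differences of effects they were DESeq2, RLE scaling, no filter on low counts, the replicate block and each library left out. The tests were checked on simulated data with planted changes larger than those of the members, so recovery of changes as small as theirs was not checked. The named genes were all 10 members, up to 3 called genes per list and direction, and the 3 genes most like each member by Pearson's r (mean of at least 10 counts). Members and lists were chosen with earlier results of these data known, and leaving libraries out of the target lists was chosen after seeing the data. Replicate numbers were taken to pair Chd8neo/neo with Chd8+/- libraries, since same-numbered libraries correlated weakly (r = 0.108, 0.195 and 0.199). This pairing is uncertain. Values of the opposite sign occurred for number 3 of Chd8neo/neo and Chd8+/+ (-0.268) and number 1 of Chd8+/- and Chd8+/+ (-0.183). Differently numbered libraries were not compared. The labels give no other link between equal numbers. A called list gene that the naming rule selects is not reported here.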

Additional observations from a re-analysis of the deposited data

Results flagged for a closer look

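For 4 genes the effect of losing Chd8 differed between the E10.5 cKO and a hypomorph at E12.5 in a test of the difference itself. The cKO effect minus the Chd8neo/neo effect was -0.35 for E2f1 (edgeR adjusted p = 0.0143), -0.35 for E2f2 (edgeR adjusted p = 0.0456), -0.35 for E2f5 (edgeR adjusted p = 0.00689) and -0.23 for E2f6 (edgeR adjusted p = 0.0283) on the log2 scale. The cKO effect minus the Chd8neo/- effect was -0.27 for E2f1 (edgeR adjusted p = 0.0498) and -0.36 for E2f5 (edgeR adjusted p = 0.00602). Stage, tissue, allele and pooling cannot be told apart in these differences. The E2f5 differences and that of E2f1 from Chd8neo/neo were called in all 22 alternatives, that of E2f6 in 13, that of E2f2 in 6 and that of E2f1 from Chd8neo/- in 5, and the E2f2 call was lost with the replicate block (edgeR adjusted p = 0.0774). None of these alternatives used a single sequencing run or sex as a covariate. No test for a single outlying library was made, since the groups of 3 libraries are too small for it.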

How the results depend on the processing

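With 3 libraries a group and small changes, the number of libraries limits these results. Calls also moved with a single sequencing run, which keeps every library and has fewer reads. In Chd8neo/neo against Chd8+/+ the second run alone lost E2f1 and E2f4 (edgeR adjusted p = 0.0533 and 0.0750). In Chd8neo/- against Chd8+/+ the first run alone gained E2f4 (edgeR adjusted p = 0.0480) and lost E2f5 (0.0611). The part of depth was not tested. Every called member kept its direction in every alternative, and the calls did not all hold. Where a count or a sign moved, the cause was not tested, beyond fewer libraries or genes in the fit.

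In Chd8neo/neo against Chd8+/+, 3 members were called, 1 with the second run only, 0 with only the 2 groups fitted, and 0 to 4 with a library left out. In Chd8neo/- against Chd8+/+, 1 was called, 2 with DESeq2, with sex as a covariate or with only the 2 groups fitted, and 0 to 3 with a library left out. In Chd8neo/neo against Chd8+/-, 2 were called, 1 with RLE scaling, the replicate block or the second run only, 0 with sex as a covariate or only the 2 groups fitted, and 0 to 4 with a library left out. In cKO 0 to 3 were called with a library left out. For the differences of effects, 4 were called against Chd8neo/neo (2 with no filter, 2 to 6 with a library left out) and 2 against Chd8neo/- (1 with RLE scaling or no filter, 1 to 2 with a library left out). With the replicate block all other counts of members kept within 1.5 times (3, 1 and 2 in Chd8neo/neo, Chd8neo/- and cKO), and block calls over all genes were 1161, 1721 and 2598 in place of 1534, 2158 and 2110. In none of these 3 comparisons did every same-numbered pair correlate above 0.1, so the numbers there are only shared numbers.

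Members near 0 that were not called changed sign. In Chd8+/- these were E2f1 (first run 0.016, with a library left out -0.069 to 0.024), E2f2 (-0.11 to 0.035), E2f3 (upper quartile scaling -0.0043, -0.038 to 0.061), E2f4 (second run -0.0050, -0.0098 to 0.061), E2f8 (-0.059 to 0.16), Tfdp1 (-0.064 to 0.025) and Tfdp2 (-0.0014 to 0.088). In Chd8neo/neo it was Tfdp2 (-0.013 to 0.10 against Chd8+/+, and against Chd8+/- -0.066 to 0.064, second run -0.0026). In Chd8neo/- these were E2f2 (first run 0.0066, -0.12 to 0.022), E2f3 (-0.072 to 0.027), E2f6 (first run 0.0026, -0.035 to 0.0018), Tfdp1 (sex as a covariate 0.0011, -0.027 to 0.0026) and Tfdp2 (-0.039 to 0.0046). Between the hypomorphs these were E2f5 (-0.043 to 0.049) and E2f7 (sex as a covariate 0.046, -0.13 to 0.038), and in cKO Tfdp1 (-0.084 to 0.0049) and Tfdp2 (-0.11 to 0.0058).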
